A study of Equus caballus with 4 samples.

Results

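The colony-stimulating factors and their receptors were examined as 8 genes: the ligands CSF1, IL34, CSF2, CSF3 and KITLG and the receptor chains CSF1R, CSF2RA and CSF2RB. Of the genes with a symbol on the array, 12277 in all, 5 of the 8 (CSF1R, IL34, KITLG, CSF2RB and CSF3) were found by an exact match of the array's gene symbol, with 1 probe each. The other 3 genes were listed under other names and were matched afterwards. CSF2 appears as GM-CSF, with 5 probes and the RefSeq transcript of CSF2. CSF1 and CSF2RA appear under an Ensembl transcript and a locus number, with 1 and 2 probes, and only their descriptions name the gene. All 13 probes are given, and the 3 genes matched by another name are marked as such where they appear.

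The cells were equine satellite cells, the stem cells of skeletal muscle, from the semitendinosus muscle of horses, taken on day 3 of differentiation. The donors were young stallions, and the study's methods chose the culture with the best viability and fusion. The 4 replicates therefore need not be 4 animals. The HMB samples (labelled with Cy5) were kept for 24 h in 50 µM HMB, a metabolite of leucine, and received 3 mM hydrogen peroxide (H2O2) during the last 1 h. The control samples (labelled with Cy3) received the same H2O2 without HMB, so both groups carry the peroxide and no cells without it were compared. Each of the 4 two-colour arrays set 1 HMB sample against a control sample. HMB was always in Cy5, so treatment and dye cannot be told apart. The control is labelled as replicate 1 on every array, although the design text counts as many control as HMB replicates. The p-values may leave out the spread of the control. The 4 arrays share 1 scan time. Their log2 ratios correlated at 0.837 to 0.92 across probes, which are not independent replicates, and 55.2 to 61.8% of the spots in a channel were well above background.

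CSF1 (macrophage colony-stimulating factor) and IL-34 are the ligands of CSF1R, a receptor tyrosine kinase on which monocytes and macrophages depend. CSF2 (GM-CSF) binds CSF2RA, the specific low-affinity chain, together with CSF2RB, the beta chain shared with the receptors of IL-3 and IL-5. CSF3 (G-CSF) drives the formation of neutrophils through its own receptor, and KITLG (stem cell factor) is the ligand of KIT. In muscle, such factors are known as signals from muscle cells and stroma to the myeloid cells that enter after injury.

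The probes show what each value stands on. They are printed 5′ to 3′ in the sense of the transcript, and positions are those of the array annotation on EquCab1. IL34 and KITLG are shown because both were bright enough to test. Each probe has 60 bases but covers a longer stretch of the genome, 277 bases for IL34 (chr3:22977507-22977783, minus strand) and 758 bases for KITLG (chr28:14559899-14560656, minus strand). Both therefore match spliced RNA across an intron.
IL34: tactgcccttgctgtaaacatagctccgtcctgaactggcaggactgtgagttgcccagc
KITLG: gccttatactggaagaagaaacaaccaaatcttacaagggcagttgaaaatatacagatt
The CSF1R probe (chr14:27174848-27174907, plus strand) is shown because it ends at a stop codon, in capitals, with no other stop in its frame.
CSF1R: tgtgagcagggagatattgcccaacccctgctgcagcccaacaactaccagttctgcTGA
The first and last of the 5 CSF2 probes (together chr14:42733954-42734017, minus strand) are shown because the set is 1 target read 5 times. Capitals mark the 56 bases that all 5 share.
CSF2 probe 1: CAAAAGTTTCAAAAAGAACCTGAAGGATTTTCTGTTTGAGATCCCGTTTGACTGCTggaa
CSF2 probe 5: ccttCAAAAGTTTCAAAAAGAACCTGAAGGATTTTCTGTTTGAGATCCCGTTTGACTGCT
The CSF2RA probes, which gave the other call, have no position in the annotation.
CSF2RA probe 1: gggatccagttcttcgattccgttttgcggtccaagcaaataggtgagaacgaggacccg
CSF2RA probe 2: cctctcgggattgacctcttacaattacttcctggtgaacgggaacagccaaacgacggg
Of the CSF3 probe (chr11:21216724-21216783, minus strand), which gave the highest mean ratio, the first 30 bases are given.
CSF3: gcatcactgattctctcttttttctggatg

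IL34 rose in cells kept in HMB, by 2.23-fold, and was called under every setting tried. CSF2RA read 1.65-fold higher on the probe that was measured in both channels of every array, a call lost in 5 of the other settings. KITLG, the third gene bright enough to test, had a mean log2 ratio of -0.01. On the deposited scale CSF3 was well above background in the HMB channel on 3 of 4 arrays and in the control channel on none. CSF1R and CSF2RB lay at or below the edge of detection in the HMB channel, and CSF2 was not well above background in any sample. A probe was tested when at least 1 channel was well above background on all 4 arrays, and it was called at an adjusted p of at most 0.05 with a fold change of at least 1.3 (limma, Benjamini-Hochberg over 24670 tested probes). Of the 13 probes 4 passed this filter, for 3 genes, and 2 genes were called, both higher, of which 1 (IL34) was matched by symbol and 1 (CSF2RA) by description. The brighter CSF2RA probe passed the filter through the HMB channel alone. Over all tested probes 28.6% were called, 12.1% higher and 16.4% lower with HMB, so with 3 genes tested nothing is read from the count of 2. In bulk RNA fewer cells of a type and less RNA per cell cannot be told apart.

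**Figure D1:**
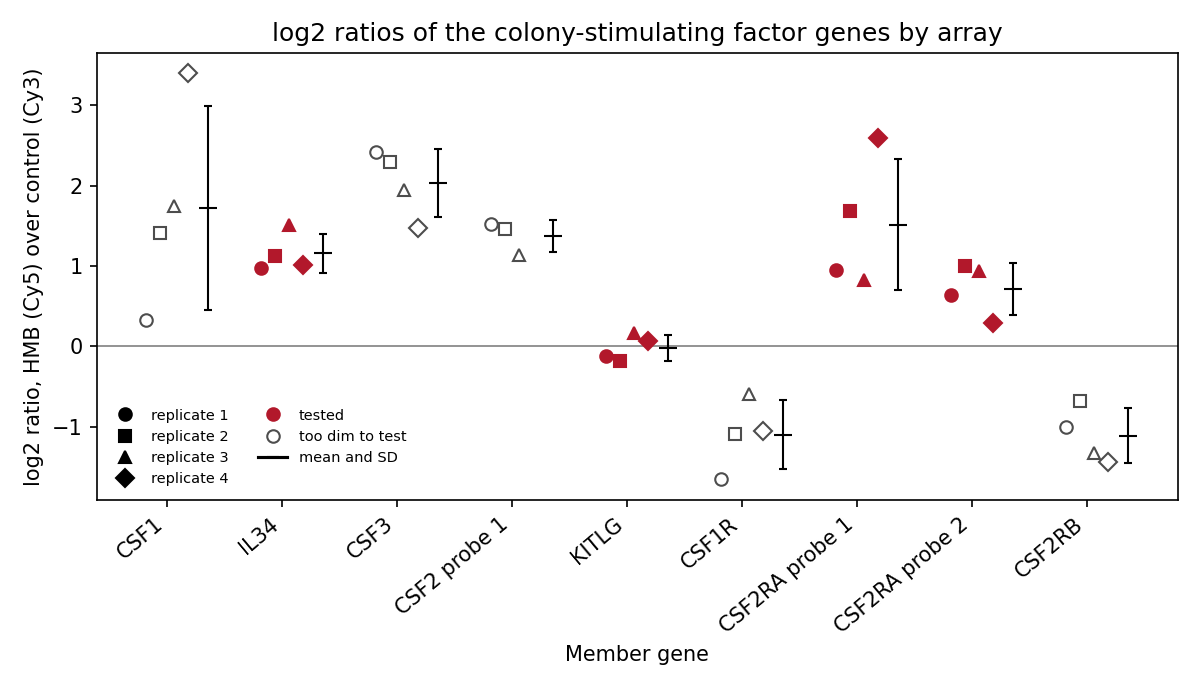
log2 ratio of HMB (Cy5) over control (Cy3) on each of the 4 arrays for the 9 probes with a ratio on at least 3 arrays, with the mean and SD as a bar. Filled red points passed the filter on dim probes and open points did not. IL34 and both CSF2RA probes lie above 0 on every array, KITLG lies on both sides of 0, and CSF1R and CSF2RB lie below 0.

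IL34 gave processed signals of 98.5, 99.1, 110.5 and 84.7 in the control channel and 194, 216.5, 315.4 and 171.7 in the HMB channel on arrays 1 to 4. Every HMB signal was above every control signal. The log2 ratios were 0.98, 1.13, 1.51 and 1.02, with a mean of 1.16 ± 0.24 (SD, n = 4). The call had an adjusted p of 0.000332 in limma and a 95% interval of 0.91 to 1.41 on the log2 scale. It was also called under each of the other settings tried, with mean log2 ratios between 0.56 (normexp background correction with loess) and 1.22 (without replicate 1).

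KITLG did not differ detectably between the channels. Its control signals were 235.7, 250.9, 242.9 and 166.3, and its HMB signals were 217.2, 222, 273.6 and 174.5, so the channels overlapped. The log2 ratios of -0.12, -0.18, 0.17 and 0.07 had a mean of -0.01 ± 0.16 (SD, n = 4), with an adjusted p of 0.903 in limma. The 95% interval of the log2 ratio ran from -0.21 to 0.18, so a change of 1.3-fold lay outside it. When ratios were shifted by the spike-in RNAs of each array, KITLG was called lower at -0.50, but that shift moved the median of all tested probes from -0.07 to -0.56.

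CSF3 was not well above background in the control channel on any array, with signals of 15.2, 24.8, 21.9 and 12. In the HMB channel it read 81, 121.8, 84.4 and 33.6 and was well above background on arrays 1, 2 and 3. The HMB signals were all above the control signals. The log2 ratios were 2.42, 2.30, 1.94 and 1.48, with a mean of 2.03 ± 0.42 (SD, n = 4), higher on 4 of 4 arrays. Since the control was not well above background on any array, a fold bound was computed from the deposited ratios. Each control signal under the lowest signal that was well above background on its array was raised to that signal. On that scale HMB was 3.38-fold higher (1.76 in log2, channels after loess and Aquantile normalization, without a dye swap). This is no strict minimum, since a signal over that lowest value can still be not well above background. On array 2 the control read 24.8, while the lowest such signal was 22.3. The bound includes array 4, on which the HMB signal was not well above background. It does not hold under other processing. The size of the difference depended on the background treatment, with a mean log2 ratio of 0.55 under normexp with loess, 0.69 under loess alone and 1.55 under spike-in scaling. Array 4, on which the HMB signal too was not well above background, kept CSF3 out of the test. Without it the probe would pass through the HMB channel alone, with a mean log2 ratio of 2.22, so no p-value is given for CSF3.

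CSF1, matched by its description at chr5:25513995-25514054 (plus strand), was spread widely. Its control signals were 11.7, 9.75, 6.53 and 15.5, none well above background. Its HMB signals were 14.7, 25.9, 22 and 163.9, of which arrays 2 and 4 were well above background. The log2 ratios of 0.33, 1.41, 1.75 and 3.40 had a mean of 1.72 ± 1.27 (SD, n = 4), and array 4 stood highest. Without replicate 4 the mean log2 ratio was 1.17, and with normexp background correction and loess over all arrays it was 0.10. No fold bound is given for CSF1, since 2 of 4 arrays were measured in the HMB channel and the bound was lost without array 4.

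CSF2 was below detection. Over its 5 probes the control signals lay between 3.89 and 6.33 and the HMB signals between 5.66 and 15.9. The lowest signal called well above background on an array was 18.3 to 28.1. The software had replaced the readings of both channels by a background-based value on all 4 arrays for 2 of the probes, so these have no ratio. Another 2 probes have a ratio on 1 array each, 1.42 and 0.36. CSF2 probe 1 had ratios on 3 arrays, 1.52, 1.46 and 1.14. With no filter on dim probes CSF2 probe 1 was called on those 3 arrays (adjusted p = 0.00366 in limma), although no reading of it was well above background and the other 4 probes share 56 of its 60 bases. No fold change is given for CSF2.

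**Figure D2:**
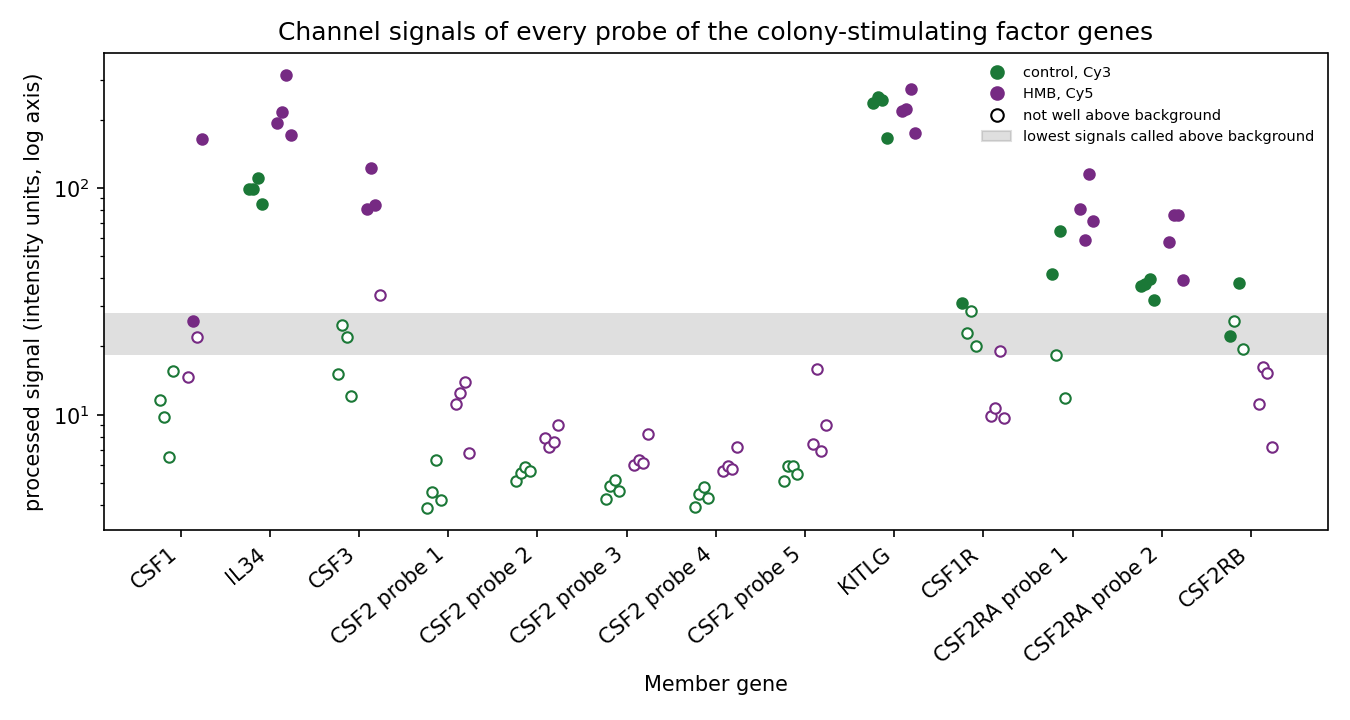
Processed signal (intensity units, log axis) of all 13 probes in the control channel (Cy3) and the HMB channel (Cy5) on the 4 arrays. Open circles were not well above background, and the grey band runs from 18.3 to 28.1, the lowest signals that were called above background on the arrays. IL34 and KITLG are above the band in both channels, CSF3 in the HMB channel, and the 5 CSF2 probes lie under it.

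Among the receptor chains CSF2RA, matched by its description, was the one that could be tested. On its first, brighter probe the control signals were 41.9, 18.3, 64.8 and 11.9, and those of arrays 2 and 4 were not well above background. The HMB signals were 80.9, 59.1, 115.4 and 71.7. The channels overlapped between arrays, but HMB was higher within each array. The log2 ratios were 0.95, 1.69, 0.83 and 2.60, with a mean of 1.52 ± 0.81 (SD, n = 4), or 2.86-fold. The 2 arrays with the highest ratios are those on which the control was not well above background, and the probe passed the filter through the HMB channel alone. Its call (adjusted p = 0.00655 in limma) and its size are therefore given as a description.

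The second CSF2RA probe was well above background in both channels on all arrays. Its control signals were 36.9, 37.8, 39.5 and 32.1 and its HMB signals 57.6, 75.9, 75.6 and 39.4, with the HMB signal of array 4 just under the highest control signal. The log2 ratios of 0.64, 1.01, 0.94 and 0.29 gave a mean of 0.72 ± 0.32 (SD, n = 4), or 1.65-fold (adjusted p = 0.0049 in limma). The probes thus agreed in direction on each array and differed in size, most on array 4. The test used in the study's methods did not call either probe (adjusted p = 0.0807 and 0.0608 in the methods' t-test on the same ratios).

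CSF2RB (chr28:34171335-34171394, plus strand), the chain that pairs with CSF2RA, was higher in the control channel. Its control signals were 22.3, 25.9, 38.1 and 19.4, of which arrays 1 and 3 were well above background. Its HMB signals of 11.2, 16.2, 15.2 and 7.19 were not well above background on any array. The control signals were all above the HMB signals. The log2 ratios were -0.998, -0.68, -1.33 and -1.43, with a mean of -1.11 ± 0.34 (SD, n = 4). No fold bound is given, since the control was measured on 2 of 4 arrays.

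CSF1R, the receptor of CSF1 and IL-34, had control signals of 31.1, 22.8, 28.7 and 20, with array 1 well above background. Its HMB signals of 9.9, 10.71, 19 and 9.68 were not well above background on any array. The control signals were all above the HMB signals here too. The log2 ratios were -1.65, -1.09, -0.59 and -1.05, with a mean of -1.10 ± 0.43 (SD, n = 4), and no fold bound is given, since the control was measured on 1 of 4 arrays. With normexp background correction and loess, which draw dim values together, the mean log2 ratios were -0.08 for CSF1R and -0.10 for CSF2RB.

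**Figure D3:**
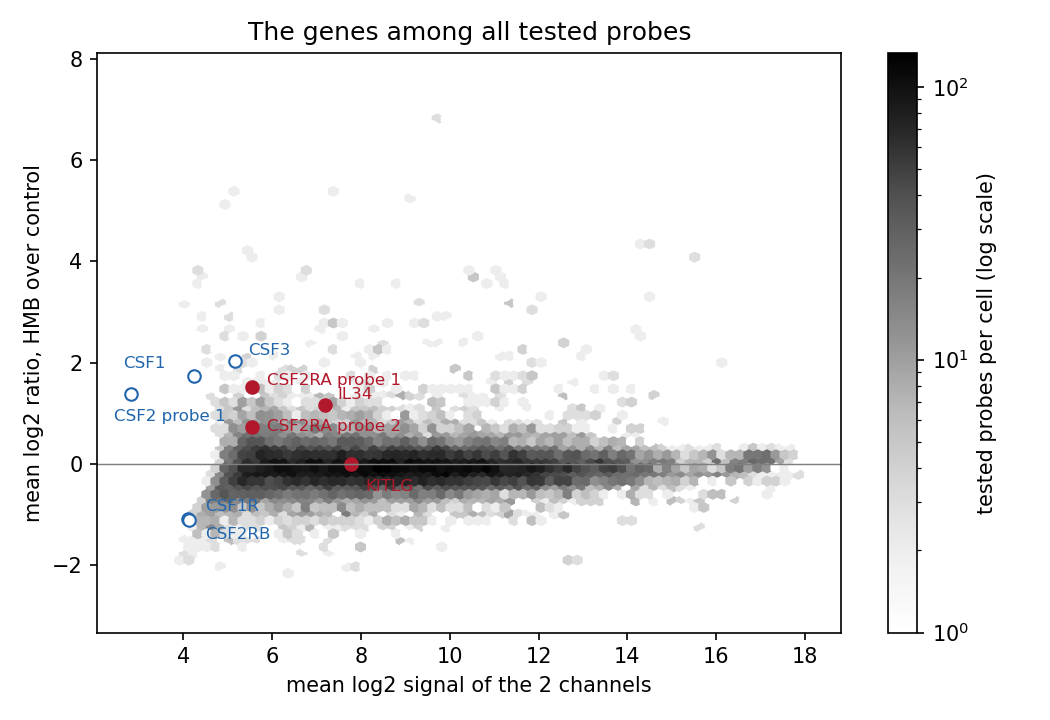
Mean log2 ratio of HMB over control against the mean log2 signal of the channels. Grey cells count the 24670 tested probes on a log scale, red points are probes of the described genes that were tested, and open blue points are those too dim to test. The untested probes lie at the dim edge of the array. KITLG lies at 0, while IL34 lies above the bulk of the probes of its brightness.

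**Figure D4:**
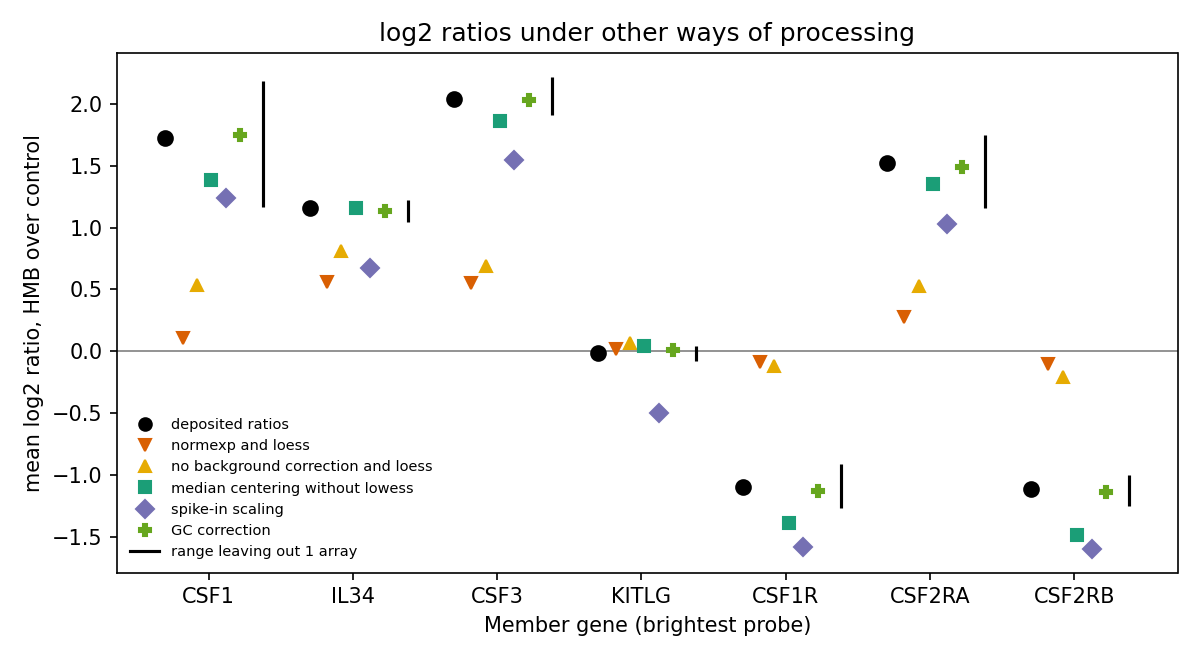
Mean log2 ratio of the brightest probe of each gene under the deposited ratios and 5 other ways of processing, with the range over leaving out 1 array as a line; CSF2 is not drawn. Under normexp with loess CSF1, CSF1R and CSF2RB come close to 0 and CSF2RA stands at 0.28, CSF3 at 0.55 and IL34 at 0.56, and KITLG leaves 0 under spike-in scaling.

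The genes whose ratios were most like those of a called gene over the 4 arrays were found by the root mean square difference of the log2 ratio. For IL34 they were GJA1, a gap junction protein, at 0.0594, KLF4, a transcription factor, at 0.0615 and ECE1, an endothelin-converting enzyme, at 0.0672. Their mean log2 ratios were 1.12, 1.14 and 1.15. For CSF2RA, on its first probe, the nearest were GCH1, which makes the cofactor of nitric oxide synthases, at 0.372, WASL, an activator of actin assembly, at 0.499 and PTHLH, a parathyroid hormone-related peptide, at 0.516. The distances were larger for CSF2RA than for IL34. Its first probe had a wider spread over the arrays (SD 0.81 beside 0.24 for IL34). The control signal of that probe was not well above background on arrays 2 and 4. The second CSF2RA probe was not compared, so nothing is read from the difference in distance.

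All 10 sister ligands and receptors had a probe, 4 were tested and 2 were called, both lower. The share called in each of the pathway lists stands beside the 28.6% of all tested probes, and with so few genes tested nothing is read from it. The lists were chosen with earlier results of these data known, so nothing is read from their median log2 ratios either. IL5 is an eosinophil growth factor whose receptor uses CSF2RB. All 5 of its probes were called lower, with mean log2 ratios between -0.72 and -0.59. The brightest probe read -0.50, -0.72, -1.02 and -0.47, a mean of -0.68 ± 0.26 (SD, n = 4, adjusted p = 0.00313 in limma). IL3RA, the specific chain of the IL-3 receptor, which also pairs with CSF2RB, was matched by its description. Its log2 ratios were -0.67, -0.79, -0.52 and -1.15, a mean of -0.78 ± 0.27 (SD, n = 4, adjusted p = 0.00213 in limma). The HMB signal of IL3RA was well above background on 3 of 4 arrays. The probe passed the filter through the control channel alone, so its call and size are given as a description. KIT, the receptor of KITLG, was well above background in both channels and had a mean log2 ratio of 0.34 ± 0.23 (SD, n = 4), which passed the adjusted p (0.0284 in limma) but not the fold of 1.3. CSF3R, the receptor of CSF3, was not well above background in any sample.

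Of 20 genes that carry the signal of these receptors 18 had a probe and 11 were tested. Of these, 4 were called higher and 1 lower (45.5% called), and their median log2 ratio was 0.31 beside -0.07 over all tested probes. JAK2, the kinase bound to CSF2RB, rose by 5.14-fold. Its log2 ratios were 2.31, 2.61, 2.48 and 2.05, with a mean of 2.36 ± 0.24 (SD, n = 4, adjusted p = 1.76e-05 in limma), and its second probe gave 2.48. FYN, a SRC-family kinase, was matched by its description and rose by 1.73-fold (0.68, 0.73, 1.06 and 0.71 on the log2 scale, adjusted p = 0.000691 in limma). STAT3, the main transcription factor below the CSF3 receptor, was also matched by its description and rose by 1.57-fold (0.37, 0.80, 0.85 and 0.57 on the log2 scale, adjusted p = 0.00256 in limma). All 8 STAT3 probes were called higher, with mean log2 ratios between 0.58 and 0.74. CBL, a ubiquitin ligase that takes CSF1R and KIT down from the surface, rose by 1.43-fold (adjusted p = 0.0403 in limma), with array 2 highest at 1.16 and the others between 0.18 and 0.44. The control signal of CBL was well above background on 3 of 4 arrays. The probe passed the filter through the HMB channel alone, so its call and size are given as a description. PIK3CA, a catalytic subunit of PI3-kinase, fell by 0.45 on the log2 scale (adjusted p = 0.00384 in limma). STAT5A, PIK3R1, PTPN11, SHC1, GRB2 and CISH were tested and not called, with mean log2 ratios from -0.07 to 0.33. Of these, STAT5A and PIK3R1 passed the adjusted p (0.0197 and 0.0184 in limma) but not the fold of 1.3.

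Of 11 genes known to induce colony-stimulating factor genes 9 had a probe and 6 were tested. Of these, 4 were called, all higher (66.7% called), with a median log2 ratio of 0.49 over the 6. NFKB1, a subunit of NF-kB, rose by 1.93-fold (1.04, 0.83, 1.14 and 0.80 on the log2 scale, adjusted p = 0.000293 in limma). RELB rose by 1.87-fold (0.66, 1.11, 1.23 and 0.60, adjusted p = 0.00191 in limma). NFKB2, the usual partner of RELB, was matched by its description and rose by 1.51-fold (0.51, 0.68, 0.71 and 0.46, adjusted p = 0.00117 in limma). REL rose by 1.31-fold, just past the fold asked for (adjusted p = 0.0285 in limma). RELA and TNF were tested and not called, at mean log2 ratios of 0.16 and 0.02. IL1A was too dim to test, with log2 ratios of 0.39, 3.12, 3.24 and 0.85, and none of the 4 IL1B probes was well above background in any sample.

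The mRNAs of CSF2 and CSF3 are degraded through AU-rich elements. Of 8 genes for proteins that bind such elements or act otherwise in mRNA decay, 6 had a probe and 4 were tested. None was called by limma or by the methods' t-test, while 2 had an unadjusted p under 0.05 in limma. ELAVL1 had a mean log2 ratio of -0.31 ± 0.12 (SD, n = 4, adjusted p = 0.0138 in limma), under the fold of 1.3. Of the 3 proteases that release soluble CSF1, CSF1R or KITLG, MMP9 rose by 1.5-fold (adjusted p = 0.00457 in limma), and ADAM10 and ADAM17 were not called, at 0.24 and -0.15 on the log2 scale.

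**Figure D5:**
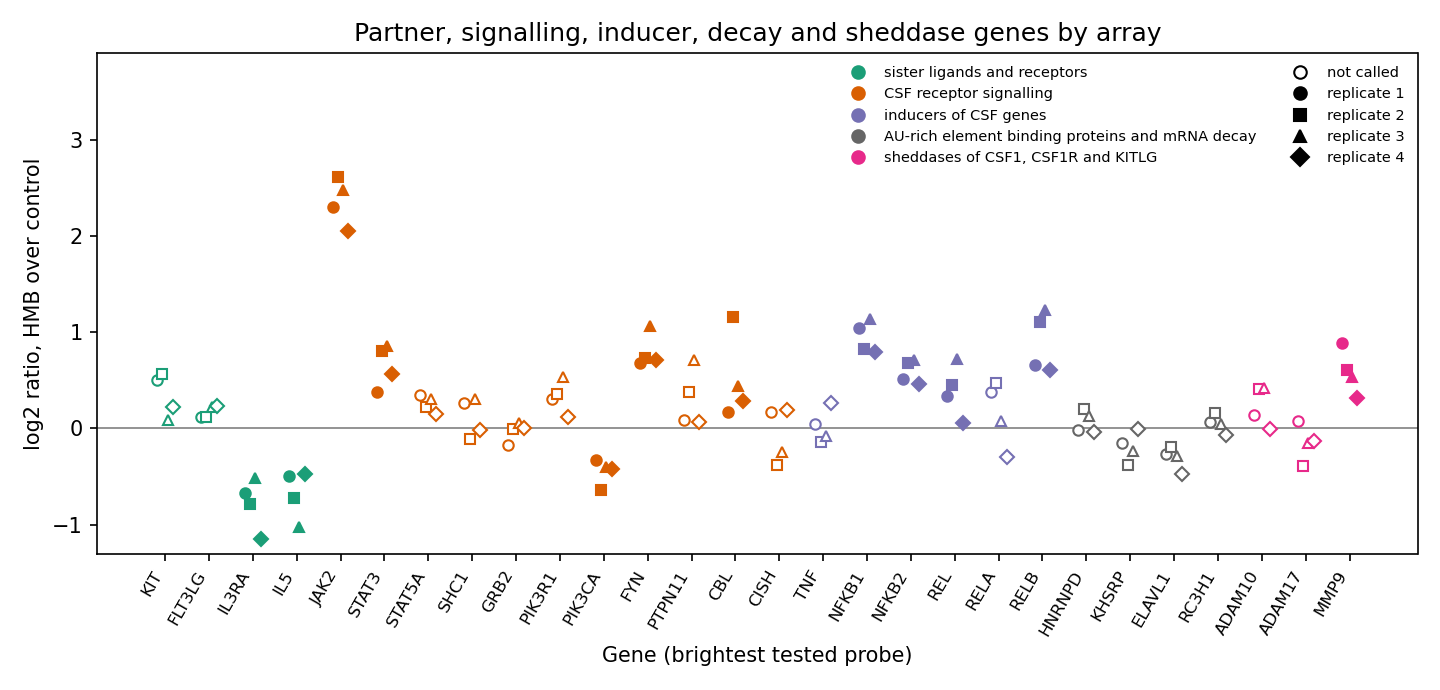
log2 ratio of HMB over control on each of the 4 arrays for the tested genes of the 5 pathway lists, each on its brightest tested probe. Shapes are the replicates, colours the lists, and filled points belong to called genes. JAK2 lies above 2 on every array, NFKB1 and RELB above 0.5, and IL5, IL3RA and PIK3CA below 0.

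Markers of other cells were read beside these results. All 13 macrophage and leukocyte markers had a probe, and 8 of them, ITGAM, CD163 and LYZ included, were not well above background in any sample. SPI1 was so only in the control of 1 array. The 4 tested were PTPRC, CD14, CD68 and FCER1G. The summed processed signal of the list was 16000 to 20300 in the control and 19400 to 31000 in the HMB channel, of which PTPRC gave 12200 to 15800 and 15200 to 24700. PTPRC, the leukocyte antigen CD45, was matched by its description and rose by 1.43-fold on its brightest probe (adjusted p = 0.00269 in limma). Its 15 probes disagreed in level: 6 were tested and all were called higher, with mean log2 ratios between 0.49 and 0.58, while the other 9 were too dim to test. Whether the bright probes read CD45 RNA was not tested, so neither the rise nor the summed signal is read as leukocytes. CD14 was well above background in all samples and not called, at 0.20 on the log2 scale. CD68, a lysosomal protein found in many cells, rose by 1.84-fold (adjusted p = 0.00063 in limma), while FCER1G fell by 0.50 on the log2 scale on its brightest probe (adjusted p = 0.00218 in limma). Of the 15 FCER1G probes 6 were tested and all of these were called lower, with mean log2 ratios between -1.20 and -0.50. Of 5 endothelial markers none was tested. Of 6 mast cell and blood progenitor markers 5 had a probe, 2 were tested, and HDC fell by 0.47 on the log2 scale (adjusted p = 0.00575 in limma). Of the 3 HDC probes 1 was tested, with its HMB signal well above background on 3 of 4 arrays. It passed the filter through the control channel alone, so its call and size are given as a description.

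The called fibroblast markers were higher and the called muscle markers lower with HMB. All 6 fibroblast markers were tested and 4 rose (PDGFRA, DCN, LUM and THY1), with a summed signal of 222000 to 260000 in the control and 252000 to 387000 in the HMB channel. COL3A1 gave 130000 to 159000 and 132000 to 207000 of this sum. COL3A1 and COL1A1 were not called on their brightest probes, at 0.06 and 0.18 on the log2 scale. All 7 COL3A1 probes were tested and 3 were called higher, with mean log2 ratios of the 7 between 0.06 and 0.42. Of 9 muscle markers 8 were tested and 6 fell (MYF5, DES, MYH3, ACTA1, CKM and NCAM1), with a summed signal of 170000 to 191000 in the control and 64800 to 103000 in the HMB channel. The shares called, 66.7% of the fibroblast and 75% of the muscle markers tested, stand beside 28.6% of all tested probes. With so few genes nothing is read from these shares. DES, which marks muscle cells, fell by 1.22 on the log2 scale (adjusted p = 0.000431 in limma), while MYOD1 and MYOG were well above background in all samples and not called, at 0.32 and 0.03. The second MYOD1 probe gave -0.11 and was not called. PAX7, matched by its description, was not well above background in any sample. The part of these shifts in the ratios of IL34, CSF2RA and the dim genes was not tested.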

How the data were processed

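Gene expression was measured on 4 two-colour arrays of horse oligonucleotide probes. The authors scanned and extracted them with Feature Extraction (10.10.1.1 per the file headers). The deposited files hold background-subtracted and dye-normalized intensity values per channel and their log10 ratio, Cy5 over Cy3. The authors' value table holds the same log10 ratios, within 3.96e-05. Here log10 ratios were turned into log2. Control spots, outlier spots and ratios with both channels replaced by a surrogate were left out, and spots of a probe were averaged. Of 43603 probes, 24670 with at least 3 ratios and 1 channel well above background on all 4 arrays were tested against 0 with limma 3.58.1 in R 4.3.3 (lmFit, eBayes). A gene is represented by its brightest tested probe. Genes were named from the array's symbols, then by RefSeq accession or synonym (RefSeq's thoroughbred annotation, names only), then by the gene name in the probe's description. The members, pathway lists and marker lists were chosen with earlier results of these data known. All members were described with every probe. Of a pathway list the called genes were named, up to 5 in each direction, and for a called member the 3 named genes nearest in ratio. Other genes named (those tested and not called, IL1A, IL1B and CSF3R, and CD14, CD68, CD163, LYZ, FCER1G, HDC and the fibroblast and muscle markers) were chosen after their values were seen. The fit was tested on simulated data. With 4 arrays, their number limits the precision. Alternatives were other tests, background corrections, scalings, filters and each array left out.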

Additional observations from a re-analysis of the deposited data

How the results depend on the processing

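IL34 was called in every alternative run. Shifting by the spike-in RNAs moved the median of all tested probes from -0.07 to -0.56 and the share of higher calls from 42.5 to 6.71%. It put KITLG at -0.50, CSF3 at 1.55, CSF1R at -1.58 and CSF2RB at -1.60, and 3 members were then called. The share of higher calls was 55% with normexp and loess and 60.1% with loess alone. Normexp with loess put CSF2RA at 0.28, CSF3 at 0.55, CSF1 at 0.10, CSF1R at -0.083 and CSF2RB at -0.10, with 1 member called; loess without background correction put CSF3 at 0.69, CSF1R at -0.12 and CSF2RB at -0.21. Median centering put CSF2RB at -1.49. The methods' t-test called 1 member (CSF2RA stayed at 1.52 but not called). Asking for both channels above background removed the brighter CSF2RA probe and left 2 members called, CSF2RA on its second probe. Without the filter on dim probes 7 members were called, most of them on readings not well above background. When printed zeros were kept, an alternative added after seeing the data, 4 were called. There the brighter CSF2RA probe, at 1.52, was not called, while the second was (adjusted p = 0.0493 in limma). The second CSF2RA probe was not called by treat or the methods' t-test (0.72), with spike-in scaling (0.23), normexp and loess (0.26) or loess alone (0.32). Leaving out 1 array gave 2 to 3 called members, CSF1 at 1.17 to 2.19, CSF1R at -1.26 to -0.91, CSF2RA at 1.16 to 1.75, CSF2RB at -1.25 to -1.001 and CSF3 at 1.91 to 2.22. Over all probes 7046 were called by limma, 5030 by the methods' t-test, 2822 by limma's treat, 3539 with normexp and loess, 4440 with loess alone and 18571 with spike-in scaling.

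Of the signalling list 3 genes were called with normexp and loess instead of 5, of the inducers 2 instead of 4, and of the sister genes 1 instead of 2. Of the proteases 0 were called with normexp and loess or by the methods' t-test (2 had an unadjusted p under 0.05 in limma). Of the decay genes 0 to 1 were called when 1 array was left out (1 without replicate 4). The causes were not tested. Each ratio already pairs an HMB sample with the control on its array, so no further block could be fitted. Signal over background limits CSF1, CSF2, CSF3, CSF1R and CSF2RB.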
